A study of Bos taurus with 30 samples.

Results

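Of the 30 small RNA libraries of the hypothalamic arcuate nucleus (ARC), 14 were set against each other by how much they held of miR-143 and miR-145, the miRNAs of smooth muscle and other mural cells of vessels. The libraries were chosen by measured values. The 9 libraries with the highest mean log2(value + 0.25) of miR-200a, miR-200c, miR-141, miR-429, miR-182, miR-183 and miR-375, miRNAs of pituitary and epithelial cells, were dropped. In the 21 libraries left, the mean log2(value + 0.25) of miR-143 and miR-145 was taken as a score, and the 7 libraries with the highest score were compared with the 7 with the lowest. The other 7 of the 21 lay between them and are called the middle libraries.

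Each library came from the ARC of 1 Holstein-Friesian bull calf, with no pooling of animals. All calves entered the dietary trial at 2 weeks of age and ended it at 12 weeks. The 15 HI calves were offered 1.5 kg of milk replacer per day and concentrates ad libitum, and the 15 MOD calves 0.5 kg of milk replacer and 0.5 kg of concentrates. The high-score class held 1 HI and 6 MOD calves, the low-score class 5 HI and 2 MOD calves, the middle 4 HI and 3 MOD calves, and the dropped libraries 5 HI and 4 MOD calves. The values are read counts of mature miRNAs scaled to a common library size, in the form of CPM. Because the samples are whole tissue, fewer cells of a type and less RNA per cell cannot be told apart.

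The wall of a blood vessel is built of endothelial cells, which line it, and of mural cells, which wrap it and are smooth muscle cells on arteries and pericytes on capillaries. miR-143 and miR-145 are made from 1 primary transcript and are the best known miRNAs of smooth muscle. miR-126 is processed from an intron of EGFL7, a gene of endothelial cells, and miR-199a and miR-214 are made from a transcript opposite to DNM3 that is active in pericytes, fibroblasts and other mesenchymal cells. In brain tissue, vessels of different calibre and the meninges carry most of these cells. In RefSeq's listing for the ARS-UCD2.0 assembly, MIR143 and MIR145 lie next to each other within LOC132345768, MIR126 lies within EGFL7, and MIR199A-1 and MIR214 lie within DNM3, while MIR199A-2 lies within DNM2. No coordinates are printed, since the deposited files were made on ARS-UCD1.2.

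The score itself is described here and not tested. It ran from 12.95 to 13.59 in the high-score libraries (median 13.14) and from 11.77 to 12.45 in the low-score libraries (median 12.20), on the log2 scale. The class boundaries did not fall in gaps. The lowest high-score library, of MOD calf A51980, had a score of 12.947, and the highest middle library, of MOD calf A47874, had 12.931. The highest low-score library, of MOD calf A61965, had 12.45, and the lowest middle library, of MOD calf A57826, had 12.54. The step that dropped libraries did fall in a gap, since the mean of the 7 pituitary and epithelial miRNAs was 7.83 or more in the dropped libraries and 5.60 or less in those left.

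miR-143 was among the most abundant miRNAs of the tissue. Its value ran from 71277 to 184692 in the high-score libraries (median 103589) and from 34310 to 54817 in the low-score libraries (median 44676). This was 8.16% to 17.1% of the counted reads in the former and 3.97% to 5.84% in the latter. miR-145, from the same transcript, was present at a far lower value, of 670.3 to 901 in the high-score libraries (median 827) and 356 to 571 in the low-score libraries (median 489). Both separated the classes, which the rule fixed. On the log2 scale the classes differed by 1.31 (SE 0.17) in miR-143 and by 0.82 (SE 0.12) in miR-145. In the dropped libraries the median of miR-143 was higher still, at 189730, while that of miR-145, 779, lay between those of the classes.

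**Figure D1:**
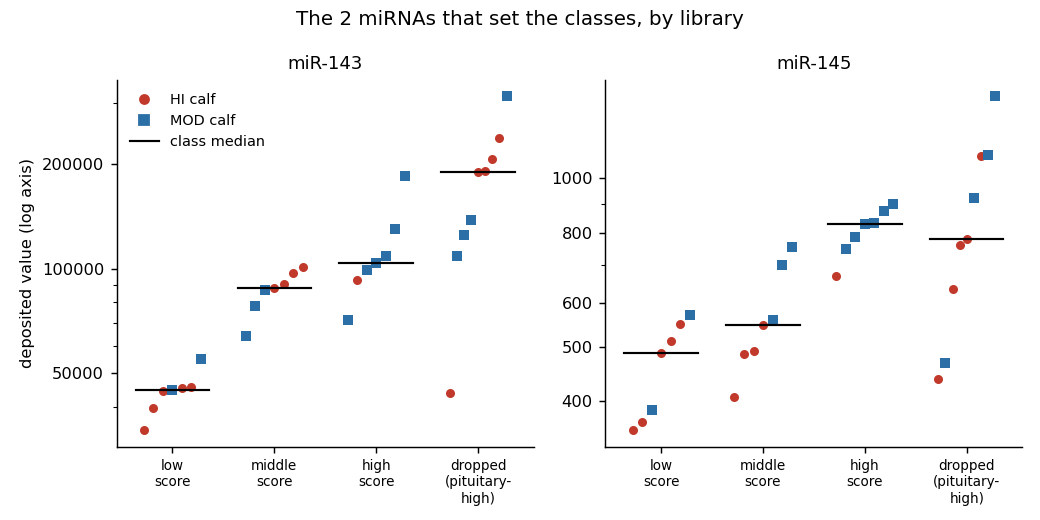
Deposited value of miR-143 (left) and miR-145 (right) in each of the 30 libraries on a log axis, by class; points are libraries, sorted by value within a class, circles are HI calves, squares are MOD calves and bars are class medians. The high-score libraries lie above the low-score libraries in both panels because the rule chose them so, and 8 of the 9 dropped libraries lie at 108603 or more for miR-143.

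Both miRNAs are cut from 1 transcript, but their ratio was not constant. The value of miR-143 was 178 to 238 times that of miR-145 in the 5 of the 21 libraries from calves with the lowest animal codes, and 80.6 to 146 times in the other 16, with no overlap. These codes mark a class of 9 calves that an earlier look at the same values had set apart, and nothing in the labels says what sets it apart. Of the 5 calves, 4 were in the middle class and 1, MOD calf A12937, had the highest score of the 21 libraries. Its ratio was 223, against 81.5 to 146 in the other 6 high-score libraries. In the dropped libraries the ratio was 232 to 307 in the 4 calves of this code class and 100.3 to 224 in the other 5.

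Depth and diet, which the rule did not use, were compared between the classes. The reads counted on miRNAs ran from 6973296 to 17914688 in the high-score libraries (median 7362488) and from 6291376 to 18767211 in the low-score libraries (median 7670195). The difference in mean log2 reads did not pass an exact two-sided permutation test (p = 0.379). Of the 7 high-score calves 6 were on the MOD diet, and of the 7 low-score calves 2 were, which did not pass Fisher's exact test (two-sided, p = 0.103). With the high-score class set against the middle and low-score classes together, the same test gave p = 0.063. Diet therefore differs in number between the classes, and values with diet as a term in the fit are given beside the differences past 1.5-fold and some others below. With this term, 2 miRNAs were free of overlap and past 1.5-fold, miR-223 and miR-653, the latter at 1.03 against 0.44 without it.

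Outside the rule's 9 miRNAs, the classes were much alike. Of 468 miRNAs tested, 0 (0%) were both free of overlap between the 7 and 7 libraries and more than 1.5-fold apart. A single one, miR-140 (0.214% of those tested), did not overlap at all. The median of all differences was -0.02 on the log2 scale, and the median size of a difference was 0.118, close to the median SE of 0.129. More than 1.5-fold higher in the high-score libraries were 11 miRNAs (2.35%), and 3 (0.641%) were more than 1.5-fold lower. The 11 were miR-199a-3p, miR-199a-5p, miR-199c and miR-214, miR-133a and miR-133b, miR-449a, miR-449b and miR-449c, miR-215 and miR-223. The 3 were both arms of miR-10182 and miR-1247-5p. Since the libraries were chosen by values from the same tissue pieces, all these differences are descriptions and carry no p.

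**Figure D2:**
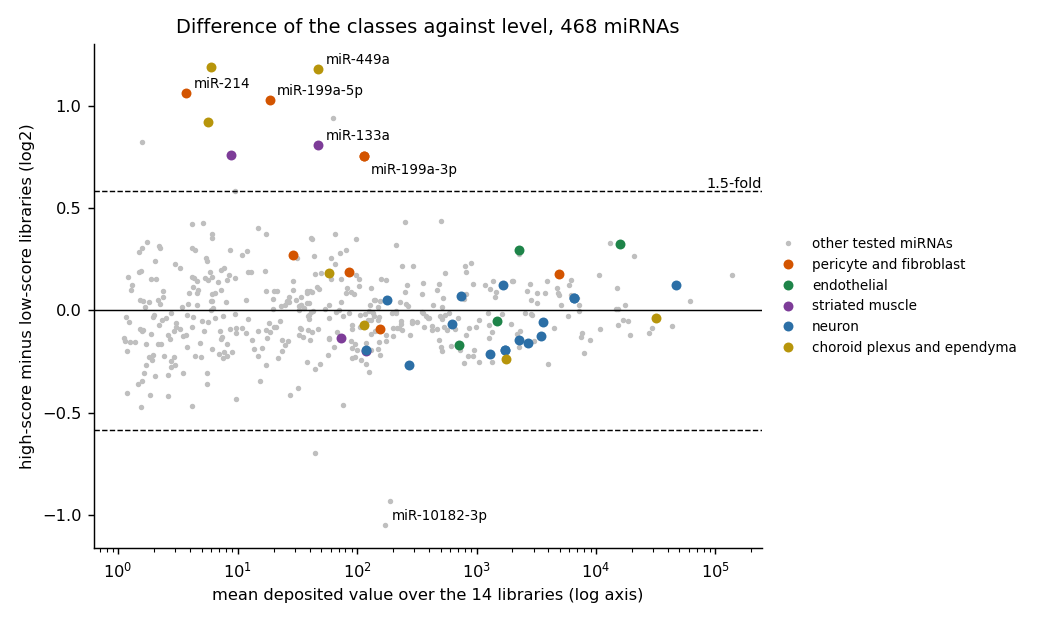
Difference between the high-score and low-score libraries (log2, y axis) against the mean value over the 14 libraries (log axis) for the 468 miRNAs, with the members of 5 lists in colour and dashed lines at 1.5-fold. Most miRNAs lie within 0.419 of 0 (the 95th percentile of the sizes), and those past the upper line are mainly of the pericyte and fibroblast, striated muscle and choroid plexus and ependyma lists.

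The pericyte and fibroblast list held 4 of the 11 miRNAs more than 1.5-fold higher. Of its 8 members, 7 were higher in the high-score libraries, with a median difference of 0.51 against -0.02 over all tested miRNAs. This count holds miR-199a-3p and miR-199c apart, which had nearly the same values, and with the pair counted once 6 of 7 were higher, with a median of 0.27. miR-199a-3p had values of 105 to 203 in the high-score libraries (median 114) and 57.4 to 129 in the low-score libraries (median 90.8). The classes overlapped only through HI calf A47858, whose 129 was the highest of the low-score class, while the other 6 low-score libraries were at 91.0 or less. The difference was 0.76 (SE 0.20, 95% interval 0.32 to 1.19), a 1.69-fold difference. miR-199c, listed with its own name, was within 0.161% of miR-199a-3p in every library, so the reads of the pair cannot be told apart.

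miR-199a-5p, the other arm of the same hairpins, had values of 16.1 to 36.3 in the high-score libraries (median 24.6) and 8.13 to 18.9 in the low-score libraries (median 10.8). Its difference was 1.03 (SE 0.22), and all 7 high-score libraries lay above the median of the low-score class. miR-214, which is cut from the same transcript as miR-199a, showed a difference of 1.07 (SE 0.26), the highest of the list. It was a rare miRNA, with values of 2.86 to 7.36 (median 46 reads) and 1.33 to 4.25 (median 25 reads). The 2 highest values of the low-score class came from HI calves A47858 (4.25) and A37840 (3.71), and 5 of the 7 high-score libraries lay above both. The members with broader sources differed less. miR-199b, from a locus of its own, was 0.27 apart (SE 0.18). Of miR-21, made in many cell types, the 5p arm was 0.18 apart (SE 0.07) and the 3p arm 0.19 (SE 0.07). miR-10b, a miRNA of the HOX clusters, went the other way at -0.09 (SE 0.32).

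With diet as a term, the difference was 0.83 for miR-199a-3p, 1.05 for miR-199a-5p and 1.21 for miR-214. Within the MOD calves, 6 high-score and 2 low-score, the means were 1.12, 1.44 and 1.54 apart. MOD calf A12937 had the highest mean of the pituitary and epithelial miRNAs among the 21 libraries, and without it the differences were 0.66, 0.94 and 0.99. With that mean as a term in the fit of all 14 libraries, the differences were 0.87, 1.16 and 1.18. In values adjusted for this term, miR-199a-3p, miR-199c, miR-199a-5p and miR-214 were free of overlap. Without calf A47858, miR-199a-3p, miR-199c and miR-199a-5p no longer overlapped, nor did miR-223 and miR-2320-5p. Of 468 miRNAs, 5, with miR-199a-3p and miR-199c counted apart, were then both free of overlap and more than 1.5-fold apart in place of 0. This calf alone caused the overlap of miR-199a, so its loss there was fixed in advance. Leaving out any other single library of the 14 gave 0.

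**Figure D3:**
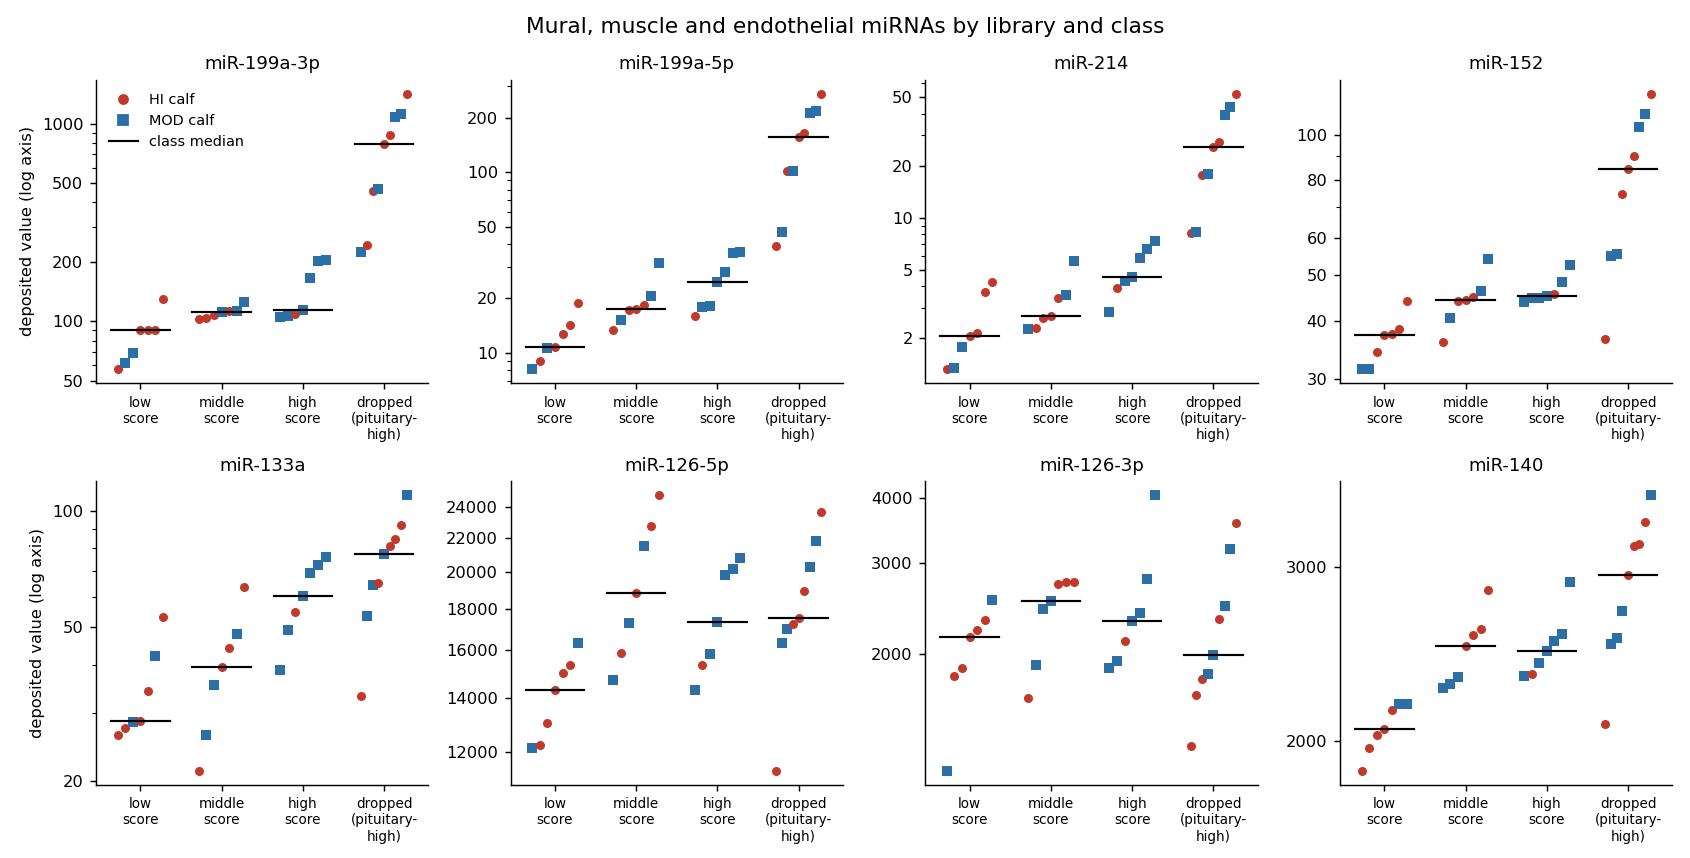
Deposited value of 8 miRNAs by library (log axes), in the 4 classes; circles are HI calves, squares are MOD calves, points are sorted by value within a class and bars are class medians. In miR-199a-3p, miR-199a-5p and miR-214 the medians of the dropped libraries, 787, 157 and 25.7, lie far above those of the other classes, while their lowest values lie just above the highest of the high-score class; in miR-126-3p and miR-126-5p the classes overlap widely.

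The endothelial list did not separate the classes. Of its 4 members, 2 were higher, 2 were lower and 0 were past 1.5-fold, with a median difference of 0.12. miR-126-5p had values of 14289 to 20777 in the high-score libraries (median 17348) and 12133 to 16323 in the low-score libraries (median 14285). Of the high-score libraries, 4 lay above the whole low-score class, and the difference was 0.32 (SE 0.10). miR-126-3p, from the other arm, was 0.30 apart (SE 0.18), with 1878 to 4041 in the high-score and 1193 to 2539 in the low-score libraries. The middle libraries held as much of both as the high-score libraries, with medians of 18848 and 2532 against 17348 and 2320. miR-221 and miR-222, a pair of endothelial and smooth muscle miRNAs made together, were -0.05 (SE 0.07) and -0.17 (SE 0.11) apart. With diet as a term, miR-126-5p was 0.27, miR-126-3p 0.34 and miR-222 -0.29 apart. The classes are therefore called by their score and not as more or less vascular.

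miR-133a, a miRNA of skeletal and heart muscle, had values of 38.7 to 75.9 in the high-score libraries (median 60.1) and 26.4 to 53.2 in the low-score libraries (median 28.7). It was 0.81 apart (SE 0.18), and 0.76 with diet as a term. miR-133b, its near copy, was 0.76 apart (SE 0.18), and 0.75 with diet as a term. The other measured striated muscle miRNAs did not share this. miR-208b and miR-499, from introns of myosin heavy chain genes, were -0.20 (SE 0.14) and -0.14 (SE 0.12) apart, and miR-1 reached at most 0.260 in the 14 libraries. miR-152, of the miR-148 family, had values of 43.8 to 52.5 in the high-score libraries and 31.5 to 44.1 in the low-score libraries. It was 0.36 apart (SE 0.08), and 0.45 with diet as a term, and a single low-score library, of HI calf A37840, reached into the high-score range. miR-133a, miR-133b, miR-152 and the miRNAs of the next paragraphs were named after their values were seen.

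miR-140, a miRNA of cartilage and other mesenchymal cells that lies within WWP2, was the miRNA whose classes did not overlap. It had values of 2328 to 2899 in the high-score libraries (median 2468) and 1868 to 2184 in the low-score libraries (median 2060). The difference was small, 0.28 (SE 0.06), a 1.21-fold difference, and its error was small too. The middle libraries were as high as the high-score ones, with a median of 2499, and the dropped libraries were higher still (2945). With diet as a term the difference was 0.21. The classes did overlap when values were scaled by upper quartile, by library size only or by library size without miR-143 and miR-145, and by library size only the difference was 0.14.

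Red blood cell miRNAs did not move together. miR-451 was 0.43 apart (SE 0.27) and miR-144, made from the same transcript, 0.58 (SE 0.31), with wide overlap in both. With diet as a term they were 0.74 and 0.86 apart, past 1.5-fold. miR-486, also abundant in red cells, was -0.08 apart (SE 0.11). The highest values of miR-451 were 438 in the high-score and 383 in the low-score class. Of the 8 leukocyte and microglia miRNAs tested, 5 were higher and 3 lower. miR-223, of neutrophils and monocytes, was 0.82 apart (SE 0.24) at a median of 14 and 10 reads per library, and 1.14 apart with diet as a term, and miR-155, of activated immune cells, was 0.35 apart (SE 0.11). miR-150, of lymphocytes, was -0.26 apart (SE 0.17), and miR-142-3p and miR-142-5p, of all blood cells, were each 0.11 apart.

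The miRNAs of multiciliated cells, which line the ventricle, varied widely between libraries of 1 class. miR-449a had values of 6.40 to 237 in the high-score libraries (median 21.2) and 2.33 to 49.0 in the low-score libraries (median 14.6). Its difference of 1.18 had an SE of 0.88 and came from 3 libraries, of calves A61973 (237), A12937 (139) and A92928 (99.9), while the other 4 high-score libraries lay between 6.40 and 21.2. miR-449b and miR-449c, of the same transcript, had their highest values in the same 3 libraries. With diet as a term the differences of miR-449a, miR-449b and miR-449c were 1.65, 1.54 and 1.44. miR-34b and miR-34c, the other miRNAs of ciliated cells, were -0.07 (SE 0.87) and -0.24 (SE 0.88) apart, with as wide a spread. miR-204 and miR-211, of choroid plexus, were -0.03 (SE 0.13) and 0.18 (SE 0.14) apart.

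miR-215, related to miR-192 of gut and kidney epithelia, was 0.94 apart (SE 0.30), with 36.2 to 117 in the high-score and 18.9 to 73.3 in the low-score libraries, and 1.06 with diet as a term. The 3 miRNAs past 1.5-fold in the other direction rested on few libraries or overlapped. miR-10182-3p was -1.05 apart (SE 0.75), but 3.23 in MOD calf A61973 stood against 93.3 to 240 in the other high-score libraries, and without this calf the difference was -0.27. miR-10182-5p did the same, with 3.87 in that calf and a difference of -0.16 without it. With diet as a term, the arms were -1.27 and -1.08 apart. miR-1247-5p was -0.70 apart (SE 0.28), with values of 20.2 to 41.9 in the high-score and 28.4 to 124 in the low-score libraries. Its highest value came from MOD calf A38765. The difference was -1.03 with diet as a term and -1.60 within MOD calves.

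Neuronal miRNAs, which mark the tissue as brain, were abundant in all 14 libraries and differed little between the classes. miR-124a ran from 5013 to 8664 and miR-9-5p from 34503 to 64310. Of 16 tested, 6 were higher and 10 lower in the high-score libraries, 0 were past 1.5-fold, and the median difference was -0.10. miR-9-5p, of neural progenitors and neurons, was 0.13 apart (SE 0.13), and miR-124a, the most neuron-specific miRNA, 0.06 (SE 0.12), with miR-124b listed at identical values. The largest size was that of miR-212, an activity-regulated miRNA, at -0.27 (SE 0.14). Of the 55 miRNAs tested from the DLK1-DIO3 imprinted cluster, a maternally expressed locus active in neurons, 45 were lower in the high-score libraries, by a median of -0.09. Over all 468 miRNAs 257 were lower, and the median was -0.02. These 55 are cut from shared transcripts and are not independent. miR-494 was the furthest from 0 among them, at -0.46 (SE 0.18).

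Oligodendrocyte miRNAs overlapped widely. miR-219-5p ran from 116 to 620 in the high-score and 112 to 287 in the low-score libraries and was 0.32 apart (SE 0.31), with medians of 171 and 172. Of the 8 miRNAs from the miR-15, miR-16, miR-195, miR-497 and miR-424 loci, which curb the cell cycle, 7 were higher, by a median of 0.19 and at most 0.22. miR-7, the pituitary and hypothalamic miRNA that the rule did not use, was -0.26 apart (SE 0.20). The summed value of the 10 pituitary and epithelial miRNAs was 2289 to 6572 in the high-score and 3073 to 6715 in the low-score libraries. The 7 of them that the rule used differed by -0.55 to -0.06, each with an SE of 0.41 or more.

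**Figure D4:**
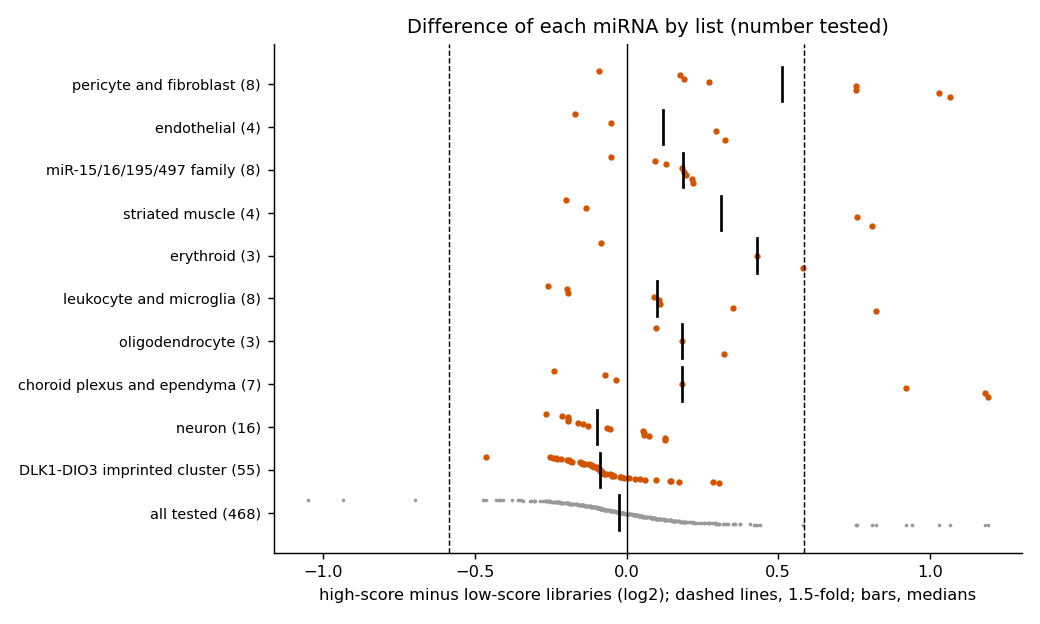
Difference between the high-score and low-score libraries (log2, x axis) for each tested miRNA, by list, with the number tested in brackets, dashed lines at 1.5-fold and a bar at each list's median. The pericyte and fibroblast list has a median of 0.51 (0.27 with miR-199a-3p and miR-199c counted once), and the neuron and DLK1-DIO3 lists lie just below all tested miRNAs.

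The 5 most abundant miRNAs of the 14 libraries were miR-143 itself, miR-26a, miR-181a, miR-9-5p and miR-127, and the others differed little. miR-26a, made in most tissues, was 0.17 apart (SE 0.18) at medians of 135395 and 113803. miR-181a was 0.05 apart (SE 0.18), and miR-127, the leading miRNA of the imprinted cluster, -0.07 (SE 0.08).

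The same score was also used in the 16 libraries that this comparison left out, 7 middle and 9 dropped. The slope of each miRNA on the score was fitted with limma. The mean of the 7 pituitary and epithelial miRNAs was a covariate, since it was 3.04 to 4.41 in the middle and 7.83 to 11.9 in the dropped libraries. The score and this mean are values that the rule used, and their Pearson correlation over the 16 libraries was 0.697. The fit is therefore not an independent test of the comparison. With class, middle or dropped, as a further term, 0 slopes had an adjusted p under 0.1. Of 468 slopes, 3 (0.641%) passed an adjusted p under 0.1 by Benjamini-Hochberg, and all belonged to miR-199a. This count tested nearly the same reads under 2 names. Of the miRNAs listed, 4 pairs lay within 1% of each other in every library, miR-199a-3p with miR-199c among them, and with each pair counted once 0 of 464 slopes passed with limma, 0 with edgeR and 9 with DESeq2 on the recovered reads of 15 libraries. That count was made after seeing the data. The slopes of miR-199a are therefore given as values that did not pass with limma when their reads were counted once. miR-199a-3p had a slope of 0.65 log2 units per unit of score (SE 0.15), and miR-199a-5p had 0.79 (SE 0.19), both with an adjusted p of 0.141 from limma with Benjamini-Hochberg adjustment when the pairs were counted once and of 0.0950 when they were not. The next 7 in order of p did not pass by the latter test either. They were miR-152 (slope 0.60, adjusted p = 0.131 by limma and Benjamini-Hochberg), miR-370 of the DLK1-DIO3 cluster (slope -0.70), 4 members of the ruminant miR-2285 family (miR-2285dd, miR-2285da, miR-2285bn and miR-2285f, slopes 0.36 to 0.40) and miR-214 (slope 0.72, adjusted p = 0.154). The 9 calls of DESeq2 with the pairs counted once were these 4 members of the miR-2285 family, miR-199a-5p, miR-199a-3p, miR-152, miR-214 and miR-451. The adjusted p of DESeq2 by Benjamini-Hochberg was 0.00952 for miR-199a-5p and 0.0148 for miR-199a-3p. With every listed miRNA tested it was 0.0245 for miR-152 and 0.0720 for miR-214. In all, 46 miRNAs had an unadjusted p under 0.05 by limma, 28 with a positive and 18 with a negative slope (44 in all with the pairs counted once).

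Of the 11 miRNAs past 1.5-fold higher, 8 had a positive slope, against 185 of all 468 (39.5%), and the 3 with a negative slope were miR-449a, miR-449b and miR-449c. These 11 are not independent, so the count is no replication of 11 separate miRNAs. miR-199a-3p and miR-199c hold nearly the same reads, miR-199a and miR-214 share a transcript, and miR-133b is a near copy of miR-133a. miR-449a, miR-449b and miR-449c also share a transcript. Of the 3 past 1.5-fold lower, 1 had a negative slope. All 8 members of the pericyte and fibroblast list had a positive slope, with a median of 0.65 (7 of 7 with miR-199a-3p and miR-199c counted once). So did all 8 of the miR-15, miR-16, miR-195, miR-497 and miR-424 loci, with a median of 0.24, and all 3 oligodendrocyte miRNAs, with 0.19. The slope was positive in 0 of 16 neuronal miRNAs (median -0.21), 0 of 7 of choroid plexus and ependyma (median -0.42) and 2 of 55 of the DLK1-DIO3 cluster (median -0.25). The blood miRNAs miR-451, miR-144 and miR-223 had steeper slopes of 1.22 (SE 0.46), 1.08 (SE 0.44) and 1.09 (SE 0.51), with adjusted p from limma of 0.325, 0.378 and 0.495 by Benjamini-Hochberg. DESeq2 on the recovered reads of 15 libraries called miR-451, with an adjusted p of 0.0720 by Benjamini-Hochberg. miR-133a had a slope of 0.63 (SE 0.22), miR-126-3p 0.53 (SE 0.19), miR-126-5p 0.36 (SE 0.15) and miR-140 0.30 (SE 0.10). None of these 4 passed, with adjusted p from limma of 0.295, 0.308, 0.452 and 0.277 by Benjamini-Hochberg.

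The slopes rested largely on the dropped libraries, whose score ran over 2.26 log2 units against 0.386 in the middle libraries. HI calf A93744 had the lowest score of the 16, 12.10, while the other 8 dropped libraries were at 12.80 or more. Without it, 0 miRNAs were called, and the slope of miR-199a-3p was 0.45 and that of miR-199a-5p 0.47, both with an adjusted p of 0.886 from limma with Benjamini-Hochberg adjustment. Other slopes given above were smaller without this calf too. They were 0.58 for miR-214, 0.32 for miR-152, 0.44 for miR-133a, 0.44 for miR-126-3p, 0.05 for miR-126-5p and 0.22 for miR-140. Leaving out 1 library at a time gave 0 to 9 calls and 0 in 11 of the 16 cases, and 0 to 7 calls and 0 in 12 cases with the pairs counted once. Counted so, there were 7 calls without calf A37824 and 5 without calf A57867, both with miR-199a-3p and miR-199a-5p among them, 1 without calf A41971 (miR-199a-5p) and 1 without calf A93744 (miR-11984). Without the pituitary covariate 196 miRNAs were called, and diet as a term left 0. With diet the slopes were 0.67 for miR-199a-3p and 0.77 for miR-199a-5p, close to those without it, with an adjusted p of 0.122 from limma with Benjamini-Hochberg adjustment. In the dropped libraries, pituitary and pericyte miRNAs were both high, and the part of 1 in the other was not tested beyond this covariate.

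**Figure D5:**
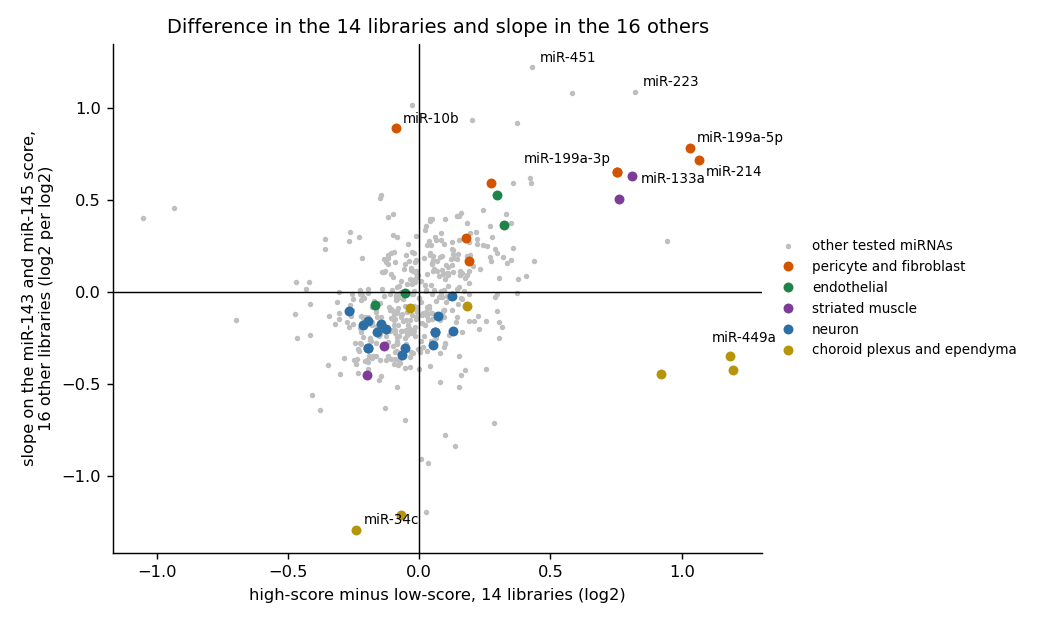
Difference between the high-score and low-score libraries (log2, x axis) against the slope on the score in the 16 other libraries (log2 per log2, y axis) for the 468 miRNAs, with the members of 5 lists in colour. miR-199a-3p, miR-199a-5p, miR-214 and miR-133a lie high on both axes, miR-449a lies right of 0 with a slope of -0.35, and miR-10b has a slope of 0.89 with a difference of -0.09.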

How the data were processed

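Small RNA of the ARC of 30 calves was sequenced, 1 library per calf. Per the study's methods, the authors checked the reads with FastQC 0.11.8, trimmed them with cutadapt (the labels list version 2.6 and the methods another), kept reads of 15 to 28 bases, and counted known bovine miRNAs with miRDeep2 on ARS-UCD1.2. The labels name a stranded RNA kit and the methods a small RNA kit. The deposited signal values are decimals in the form of CPM over TMM-scaled library sizes, 1 per calf for each of 1030 mature miRNAs.

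The worth of 1 read in each library was recovered from its low values. Between 94.5% and 97.9% of values under 200 reads were then whole (tolerance 0.1 read), and depths ran from 6291376 to 21083250 reads. Differences and slopes were taken on log2(value + 0.25), which understates the change of rare miRNAs, with limma's lmFit and eBayes with a trend (0.25 is worth 2.08 reads at the median depth). edgeR's filterByExpr on the reads of 29 libraries kept 477 miRNAs, of which 468 remained without the 9 of the rule. Count tests left out HI calf A31979 by a fixed setting and not by a cutoff on these shares. With the step taken from values up to 20 times the smallest, 94.8% of these were whole in it. This was the lowest share of the 30, but HI calf A47858, which was kept, had 95.6%. Of values under 200 reads, 95.5% were whole in A31979, which was not the lowest share.

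The members, the lists and the tests were chosen with earlier results of these data known. miRNAs were to be named if they belonged to the rule, were free of overlap and past 1.5-fold, were in the endothelial or pericyte and fibroblast lists, were among the 5 most abundant, or passed in the slope fit. Others are named after their values were seen. A replicate is a calf, so intervals cover animals and technical spread together. The code was tested on simulated data. Alternatives covered the pseudocount, filter, scaling, covariates, count tests, the libraries used and leaving out each library; within MOD calves and counting miRNAs with values within 1% of each other once were added after seeing the data. Not used here were mRNA and protein data and miRNA sequences. Software was R 4.3.3, limma 3.58.1, edgeR 4.0.16 and DESeq2 1.42.0, and Python 3.11.15 with scipy 1.17.1.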

Additional observations from a re-analysis of the deposited data

Results flagged for a closer look

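In 35 miRNAs, each of the 4 classes was checked for a library far from the others by Dixon's ratio at 95%. Of 140 groups, 13 had such a library, and 1 in 20 of the groups would be 7. Some of the 35 miRNAs were named after their values were seen, and some share reads, a hairpin or a transcript. The groups are therefore neither independent nor unselected, and 13 against 7 is not a test.

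Among the high-score libraries, MOD calf A61973 was far below the others in both arms of miR-10182, with 3.23 for miR-10182-3p (others 93.3 to 240) and 3.87 for miR-10182-5p (others 113 to 354). MOD calf A51980 was lowest in miR-155 at 93.7 (others 106 to 115) and in miR-11986b at 3.07 (others 5.36 to 7.58). MOD calf A97821 was highest in miR-181a at 100650 (others 50519 to 64950), and MOD calf A12937 in miR-486 at 37502 (others 23899 to 28903).

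Among the low-score libraries, HI calf A47858 stood out upward in miR-181a at 103208 (others 48558 to 60980) and in miR-27a-3p at 17019 (others 10167 to 11480). It was also the highest of its class in miR-199a-3p and miR-214.

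In the middle libraries, HI calf A13745 was highest in miR-127 at 72373 (others 43631 to 51869). In the dropped libraries, HI calf A17855 was highest in miR-127 at 94487 (others 38074 to 44849) and HI calf A93744 lowest in miR-126-5p at 11372 (others 16325 to 23668). MOD calf A21978 was lowest in miR-10182-3p at 1.93 (others 38.3 to 217) and in miR-10182-5p at 1.81 (others 38.7 to 223).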

How the results depend on the processing

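The comparison of classes gave 0 miRNAs past both criteria under every pseudocount, filter, scaling and with edgeR on recovered reads. It gave 2 with diet as a term, 1 with log2 reads and 4 with the pituitary mean, and 0 to 5 when 1 library was left out (5 without HI calf A47858). With log2 reads the miRNA was miR-133b. With the pituitary mean they were miR-199a-5p, miR-214, and miR-199a-3p and miR-199c, which hold nearly the same reads. The count without overlap at any fold, 1 in the main comparison, was 0 by upper quartile and by library size without miR-143 and miR-145, 2 by library size only, 4 with diet, 3 with log2 reads, 3 with the lowest codes and 6 with the pituitary mean as a term, and 1 to 6 with 1 library left out. Library size only moved the median of all differences to -0.16. Of the differences of named miRNAs, 481 stayed within 1 SD of the main value and 8 moved by more. The SD is that between libraries within the classes. A filter does not change the difference of a miRNA, so part of the 481 was fixed in advance. The sign changed in 4 cases, none past 1.5-fold: miR-10b from -0.09 to 0.04 with log2 reads as a term and to 0.01 with edgeR, and, by library size only, miR-181a from 0.05 to -0.09 and miR-9-5p from 0.13 to -0.01.

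With miRNAs within 1% of each other in every library counted once, an alternative chosen after seeing the data, the slope calls were 0 of 464 in place of 3 of 468, and the counts of overlap stayed at 0 and 1. Counted so, the calls were 0 under each pseudocount, with no filter, with a mean value of at least 10, with diet and with edgeR, 7 with DESeq2's size factors, 17 with log2 reads and 8 with the lowest codes as a term, 9 with DESeq2 on recovered reads, and 0 to 7 with 1 library left out. With every listed miRNA tested they were 3 under each pseudocount, a number that holds miR-199a-3p and miR-199c as 2 tests. They were 0 with no filter, 9 with a mean value of at least 10, 8 with DESeq2's size factors, 0 by upper quartile, library size only and library size without miR-143 and miR-145, 0 with diet, 19 with log2 reads and 9 with the lowest codes as a term. They were 196 without the pituitary covariate, 0 with class as a term as well, 1 in the 9 dropped libraries (miR-133a, adjusted p = 0.0880 from limma with Benjamini-Hochberg adjustment) and 0 in the 7 middle libraries. On recovered reads of 15 libraries edgeR called 0, with 43 at an unadjusted p under 0.05, and DESeq2 called 10. Leaving out 1 library gave 0 to 9. The cause was not tested. Depth limits rare miRNAs such as miR-223 and miR-214, whose class medians rest on 10 to 46 reads. For miR-199a-3p, miR-199a-5p and miR-199c the slope stayed positive under every alternative.

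No paired analysis was possible because each calf belongs to 1 diet and the replicate numbers, given in the order of the samples, join different calves.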
